A study of Mus musculus with 16 samples.

Results

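The insulin-like growth factor (IGF) genes described here are the 9 whose symbols are Igf1, Igf2, Igf1r, Igf2r, Igfbp3, Igfbp4, Igfbp5, Igfbp6 and Igfbp7. They were found by the gene name that the array files give to each non-control probe, which gave 16 of 41174 probes. Of these, 14 had signal well above background on 4 or more of the 16 arrays, and all 9 genes entered the test of 15669 genes. The 2 probes left out were extra probes of Igf1 and Igf1r, above background on 1 and 2 arrays. RNA was taken from mid-ventricular pieces of heart, labelled as left ventricle, of mice on a C57BL/6 N background. NOS3-TG mice carried nitric oxide synthase 3 driven in cardiomyocytes by the alpha-myosin heavy chain promoter and were set against wild-type (WT) littermates. Each genotype was sampled 10 weeks after surgery for transverse aortic constriction (TAC, which loads the left ventricle by banding the aorta) or intact (baseline). The groups NOS3-TG TAC, NOS3-TG baseline, WT TAC and WT baseline held 4 mice each, 2 males and 2 females, matched for age and weight, with the age not given in the labels.

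IGF1 and IGF2 are secreted peptides that act through the IGF1 receptor, a tyrosine kinase that signals to growth, survival and protein synthesis. The IGF2 receptor, also the mannose 6-phosphate receptor of lysosomal sorting, takes up IGF2 for breakdown. The binding proteins hold IGFs outside the cell, lengthen their life or keep them from the receptor, and proteases release them. In the heart, IGF1 signalling is known for physiological growth of cardiomyocytes, and Igf2 is a fetal growth gene whose expression is low after birth in most rodent tissues.

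Levels are given as log2 of the processed signal minus log2 of the array's 75th percentile, so 0 means a signal equal to that percentile. A level belongs to its probe and was compared between arrays only, not between genes. The 75th percentile lay between 1053 and 1491 on all arrays and the share of probes well above background between 44.24% and 68.04%. The transgene was seen as labelled: Nos3 was higher in NOS3-TG than in WT by 5.70 ± 0.12 after TAC and by 6.59 ± 0.12 at baseline on the log2 scale (SE). The load marker Nppb was raised by TAC in both genotypes, by 2.08 ± 0.29 in NOS3-TG and 2.94 ± 0.29 in WT. Nppa was raised by 1.75 ± 0.39 in NOS3-TG and 2.07 ± 0.39 in WT. Ventricular genes such as Myl2 were high in every group (8.09 to 8.92). Baseline arrays lay on slides 1 and 4 and TAC arrays on slides 2 and 3, so load cannot be told apart from surgery or slide.

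The atrial marker genes were high on most of the arrays, although these were labelled as left ventricle. Whether the pieces held atrial tissue was not tested. Myl7, the atrial myosin light chain, was at -3.27 to 5.41 in NOS3-TG TAC, -4.38 to 6.71 in NOS3-TG baseline, -2.14 to 5.32 in WT TAC and -3.25 to 7.02 in WT baseline. Sln, the atrial sarcolipin, and Myl4 followed the same split. The mean of the 3 markers was below 0 on 6 arrays and above 0 on the other 10. After TAC it was above 0 in all 4 males and below 0 in all 4 females, so there sex and atrial marker level cannot be told apart. The summed level of the markers, in multiples of the 75th percentile, ran from 0.886 to 83.1 in NOS3-TG TAC, 0.793 to 178 in NOS3-TG baseline, 0.827 to 70.5 in WT TAC and 0.851 to 214 in WT baseline. For this reason the comparisons of the 9 genes, but not those of the pathway and marker lists, were also fitted with the mean atrial marker level as a covariate, an alternative chosen after seeing the data. Within groups, the correlation of the 9 genes with that level ran from -0.16 (Igf2) to 0.63 (Igfbp3), with 0.62 for Igf1.

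**Figure D1:**
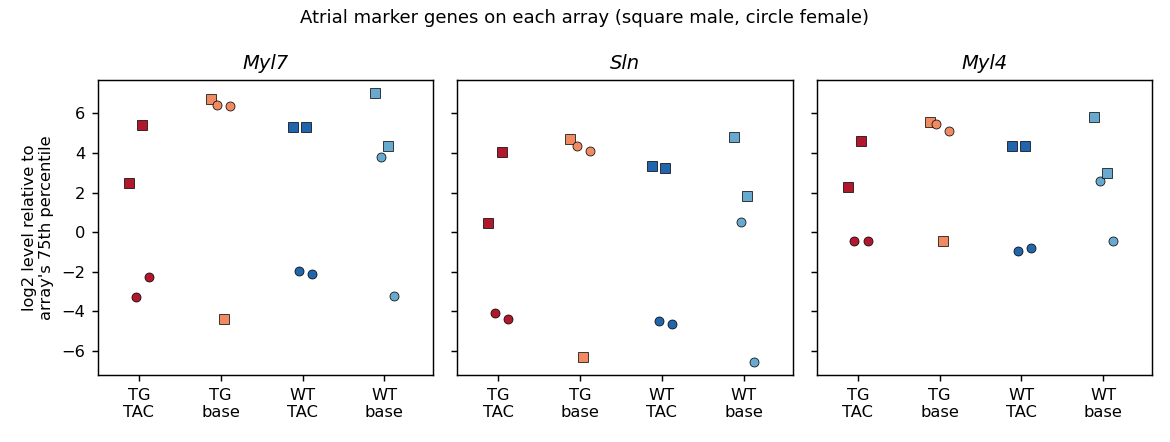
Level of the atrial markers Myl7, Sln and Myl4 on each of the 16 arrays, as log2 relative to the array's 75th percentile. On the axis TG stands for NOS3-TG and base for baseline; squares are males and circles females. Each gene splits into high and low arrays within every group, and after TAC the males are the high ones.

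After TAC, Igf2 fell, and Igfbp6, Igfbp7 and Igf1r rose, in NOS3-TG and in WT ventricles. Igf1 passed the test only in WT, where it rose, and the difference between genotypes in its TAC response was itself not past the threshold (-0.33 ± 0.27, adjusted p = 0.771). In NOS3-TG, 4 of the 9 genes were called, 3 higher and 1 lower, against 11.8% of all genes tested. In WT, 5 of 9 were called, 4 higher and 1 lower, against 28.5% of all genes tested. The median log2 difference of the 9 genes was 0.23 in NOS3-TG and 0.56 in WT, beside 0.00 and -0.06 over all genes. Because the 9 genes were chosen with earlier results of these data known, these contrasts do not test whether the set stands out. The NOS3-TG count was less firm: it was 1 when the compared groups were fitted alone and 1 to 4 with 1 array left out. With the atrial marker level in the fit the same 4 genes were called in NOS3-TG, and in WT the same 5 and Igfbp3. A call is a Benjamini-Hochberg adjusted p under 0.05 over all 15669 genes in limma's moderated test.

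**Figure D2:**
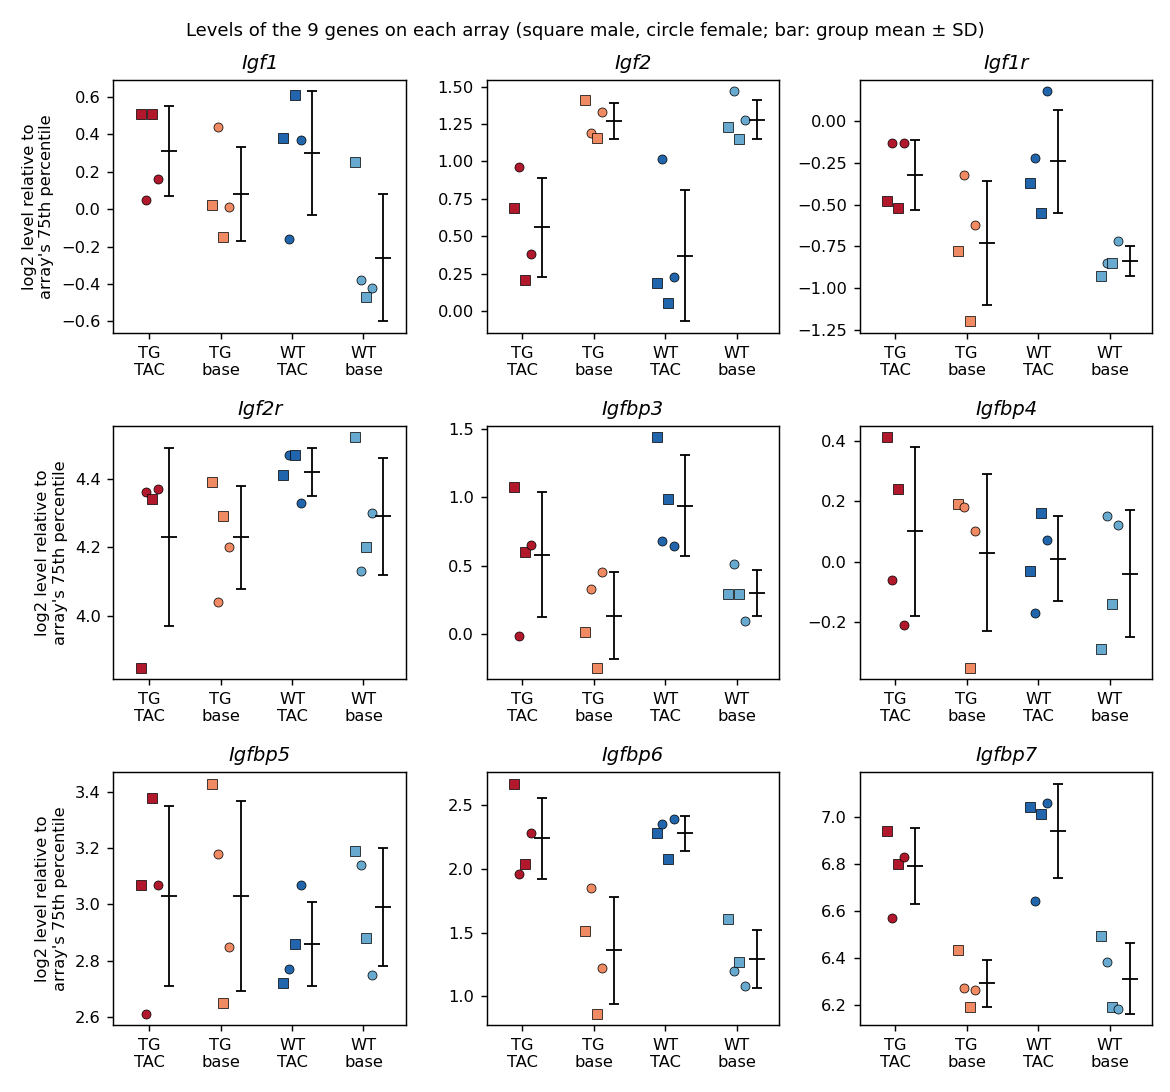
Level of the probe that stands for each of the 9 genes on each array, as log2 relative to the array's 75th percentile, with group mean ± SD over 4 arrays beside the points. Squares are males and circles females, and TG and base stand for NOS3-TG and baseline. The TAC arrays of Igf2 lie below, and those of Igfbp6 and Igfbp7 above, all baseline arrays of the same genotype.

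The genes called in both genotypes are shown with the DNA around an annotated transcription start, so that their start regions can be compared. Each stretch has 300 bases, from RefSeq on build GRCm38.p6, 5′ to 3′ on the strand of the gene. Capitals mark matches on either strand to 6 motifs. These were the letters TATAAA for the TATA box, the CCAAT box by its own letters, GGGCGG for the GC box, TGANTCA for AP-1, AGATAA for GATA factors and GGAATG for TEAD factors. Igf2 has 4 annotated windows, and the one printed is that of the most downstream start, chr7:142657447-142657746 on the minus strand. Igf1r is at chr7:67952007-67952306 on the plus strand, Igfbp6 at chr15:102143936-102144235 on the plus strand and Igfbp7 at chr5:77407996-77408295 on the minus strand.
Igf2: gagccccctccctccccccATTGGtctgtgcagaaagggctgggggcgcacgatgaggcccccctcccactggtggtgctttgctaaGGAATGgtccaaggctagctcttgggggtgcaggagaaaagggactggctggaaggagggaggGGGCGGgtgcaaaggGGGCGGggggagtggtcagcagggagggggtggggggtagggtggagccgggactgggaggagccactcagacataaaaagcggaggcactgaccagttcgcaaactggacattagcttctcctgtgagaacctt
Igf1r: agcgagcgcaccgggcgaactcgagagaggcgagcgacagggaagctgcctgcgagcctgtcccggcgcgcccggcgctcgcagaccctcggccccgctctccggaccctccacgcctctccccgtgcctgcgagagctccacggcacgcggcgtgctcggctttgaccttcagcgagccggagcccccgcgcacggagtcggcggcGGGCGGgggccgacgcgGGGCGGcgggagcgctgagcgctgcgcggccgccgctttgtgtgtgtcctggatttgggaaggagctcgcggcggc
Igfbp6: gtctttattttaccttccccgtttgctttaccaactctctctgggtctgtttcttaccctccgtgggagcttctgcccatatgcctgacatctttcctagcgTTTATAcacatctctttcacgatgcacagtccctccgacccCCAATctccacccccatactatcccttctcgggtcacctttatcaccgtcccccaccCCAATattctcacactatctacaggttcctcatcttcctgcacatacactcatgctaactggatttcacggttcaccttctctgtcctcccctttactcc
Igfbp7: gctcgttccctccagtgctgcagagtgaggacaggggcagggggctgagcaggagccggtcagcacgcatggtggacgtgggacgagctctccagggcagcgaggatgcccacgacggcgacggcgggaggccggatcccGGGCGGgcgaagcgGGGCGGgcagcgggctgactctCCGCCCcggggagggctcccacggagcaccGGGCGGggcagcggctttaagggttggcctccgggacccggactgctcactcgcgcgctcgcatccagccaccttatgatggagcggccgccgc

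The 4 windows shared no motif of the 6. The Igfbp7 window held 4 GC box matches and the Igf1r window 2, as did the Igf2 window, whereas the Igfbp6 window held 0. Among all 32851 windows of the same length 35.7% held a GC box match. Igfbp6 had 1 TATA box match and 2 CCAAT box matches, which 13.6% and 37.4% of all windows held. The Igf2 window also had 1 CCAAT box match and 1 TEAD match (14.7% of all windows). Base composition set them apart as well: G and C made up 73.3% of the Igfbp7 window, 76% of that of Igf1r, 63.3% of that of Igf2 and 49.7% of that of Igfbp6, beside a median of 52.7%. CpG dinucleotides numbered 33, 48, 7 and 8 in the same order, with a median of 7 over all windows. The probes of Igf2 cannot tell which of its starts was in use.

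Igf2, the ligand on chromosome 7 (142650768 to 142666816 in GRCm38.p6), was the member that fell. Its level was 0.69, 0.96, 0.21 and 0.38 on the NOS3-TG TAC arrays, against 1.41, 1.19, 1.16 and 1.33 on the NOS3-TG baseline arrays. In WT it was 0.19, 1.02, 0.05 and 0.23 after TAC, against 1.23, 1.47, 1.15 and 1.28 at baseline. All TAC arrays lay below all baseline arrays of their genotype, with 1 TAC female in each genotype close to the baseline range. The difference was -0.71 ± 0.18 in NOS3-TG (adjusted p = 0.0258) and -0.91 ± 0.18 in WT (adjusted p = 0.00339), a fall of 1.63-fold and 1.88-fold.

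A second Igf2 probe, A_51_P516833, gave the same direction. It fell by 0.80 on the log2 scale in NOS3-TG and by 0.83 in WT, again with no overlap (adjusted p over all probes 0.00937 and 0.00316). TAC arrays of slide 3, scanned on the second day, had lower mean Igf2 than those of slide 2. Single arrays overlapped, with WT TAC replicate 1 of slide 2 (0.19) within the range of slide 3. The slide 3 means were 0.30 in NOS3-TG and 0.14 in WT, and the slide 2 means 0.83 and 0.61. With scan day as a covariate the difference was -0.46 in NOS3-TG, no longer called (adjusted p = 0.0831), and -0.66 in WT (adjusted p = 0.0187). The NOS3-TG call was also lost on leaving out any of 5 NOS3-TG arrays (baseline replicates 1, 3 and 4 and TAC replicates 3 and 4), with adjusted p up to 0.0826. It was lost as well with no filter (0.0708), with the compared groups alone (0.0515) and without the 3 arrays with extreme shares above background (-0.52, adjusted p = 0.194). With the atrial marker level in the fit, Igf2 stayed called at -0.74 in NOS3-TG and -0.92 in WT.

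Igf1, the other ligand (chromosome 10, 87858265 to 87937047), had levels of 0.51, 0.05, 0.51 and 0.16 in NOS3-TG TAC, against 0.02, 0.44, -0.15 and 0.01 in NOS3-TG baseline. In WT the levels were 0.38, -0.16, 0.61 and 0.37 after TAC, against 0.25, -0.38, -0.47 and -0.42 at baseline. The groups overlapped in both genotypes, in WT through the low TAC replicate 2 and the high baseline replicate 1. The NOS3-TG difference of 0.23 ± 0.19 did not pass (adjusted p = 0.465), while Igf1 rose by 0.56 ± 0.19 in WT (1.47-fold, adjusted p = 0.0419). Its other passing probe, A_51_P147942, gave 0.29 ± 0.17 in NOS3-TG (adjusted p over all probes = 0.312) and 0.64 ± 0.17 in WT (adjusted p = 0.0162).

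The WT call of Igf1 was the weakest of the 5. It was lost on leaving out any of 9 arrays, with adjusted p up to 0.127 without WT baseline replicate 3, and under 5 of the other settings, with 0.158 when scan day was a covariate. WT baseline replicate 1, the high Igf1 array, also had the highest Myl7 of all 16 arrays (7.02). With the atrial marker level as a covariate the NOS3-TG difference was 0.36 (adjusted p = 0.18), and Igf1 rose by 0.60 in WT (adjusted p = 0.0134).

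Of the receptors, Igf1r was called and Igf2r was not, and the difference between their responses was not tested. Igf1r, the signalling receptor (chromosome 7, 67952257 to 68233668), had levels of -0.48, -0.13, -0.52 and -0.13 in NOS3-TG TAC, against -0.78, -0.32, -1.20 and -0.62 in NOS3-TG baseline. In WT it had -0.37, -0.22, -0.55 and 0.18 after TAC, against -0.93, -0.85, -0.85 and -0.72 at baseline. All WT TAC arrays were above all WT baseline arrays, whereas the NOS3-TG groups overlapped through baseline replicate 2. In NOS3-TG Igf1r rose by 0.41 ± 0.12 (1.33-fold) with an adjusted p of 0.0478, just past the threshold. It rose by 0.60 ± 0.12 in WT (1.51-fold, adjusted p = 0.00411), a call that held without any single array. The NOS3-TG call was lost under 21 of 31 alternatives. Leaving out any array but NOS3-TG baseline replicate 2, WT TAC replicate 2 or WT TAC replicate 4 ended it, with adjusted p up to 0.131.

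The files hold 2 further probes, named A330103N21Rik and D930020L01, that RefSeq lists as synonyms of Igf1r. After TAC, D930020L01 had 0.58 ± 0.18 in NOS3-TG (adjusted p over all probes = 0.0561) and rose by 1.00 ± 0.18 in WT (adjusted p = 0.00183). A330103N21Rik had 0.19 ± 0.14 in NOS3-TG and 0.36 ± 0.14 in WT and passed in neither. Both thus pointed the same way as the Igf1r probe, although they were not counted among the members. The Igf1r probe left out, above background on 2 arrays, had lower means after TAC. They were -5.22 against -4.93 at baseline in NOS3-TG, and -4.75 against -4.5 in WT.

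Igf2r, the clearing receptor (chromosome 17, 12682406 to 12769706), had 3.85, 4.36, 4.34 and 4.37 in NOS3-TG TAC, against 4.39, 4.04, 4.29 and 4.20 in NOS3-TG baseline. In WT it had 4.41, 4.47, 4.47 and 4.33 after TAC, against 4.52, 4.13, 4.20 and 4.30 at baseline. No test called it: the difference was 0.00 in NOS3-TG (95% interval -0.28 to 0.27) and 0.13 in WT (-0.14 to 0.41). It also varied least of the 9 genes over the 16 arrays (SD 0.18).

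Of the 5 binding proteins among the 9 genes, 2 were called. Igfbp6, which binds IGF2 in preference to IGF1, lies on chromosome 15 (102144186 to 102149512). Its level was 2.67, 1.96, 2.04 and 2.28 in NOS3-TG TAC, against 1.51, 1.85, 0.86 and 1.22 in NOS3-TG baseline. In WT it was 2.28, 2.35, 2.08 and 2.39 after TAC, against 1.61, 1.20, 1.27 and 1.08 at baseline. Every TAC array was above every baseline array of its genotype, by a narrow gap in NOS3-TG (1.96 against 1.85) and a wider one in WT (2.08 against 1.61). Igfbp6 rose by 0.88 ± 0.21 in NOS3-TG (1.83-fold, adjusted p = 0.0176) and by 0.99 ± 0.21 in WT (1.98-fold, adjusted p = 0.00417). The NOS3-TG call was lost without TAC replicate 1 (adjusted p = 0.0536) or baseline replicate 4 (0.0508), at the threshold without TAC replicate 4 (0.05), and with the compared groups fitted alone (0.0794).

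Igfbp7, a secreted protein with low affinity for IGFs that is made by vessel and stromal cells, lies on chromosome 5 (77349240 to 77408045). Its level was 6.94, 6.57, 6.80 and 6.83 in NOS3-TG TAC, against 6.43, 6.27, 6.19 and 6.26 in NOS3-TG baseline. In WT it was 7.04, 6.64, 7.01 and 7.06 after TAC, against 6.49, 6.38, 6.19 and 6.18 at baseline. The conditions did not overlap in either genotype, and WT TAC replicate 2 was apart from the other 3 TAC arrays of its group. Igfbp7 rose by 0.50 ± 0.11 in NOS3-TG (1.41-fold, adjusted p = 0.0116) and by 0.63 ± 0.11 in WT (1.54-fold, adjusted p = 0.00141). Both calls held without any single array. The NOS3-TG call was lost with scan day as a covariate (0.44, adjusted p = 0.0564) and without the 3 arrays with extreme shares above background (0.49, adjusted p = 0.109).

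Igfbp3, the main carrier of IGFs in serum (chromosome 11, 7206086 to 7215498), fell short of the threshold. It had levels of 1.08, -0.02, 0.60 and 0.65 in NOS3-TG TAC, against 0.01, 0.33, -0.25 and 0.45 in NOS3-TG baseline. In WT it had 1.44, 0.68, 0.99 and 0.64 after TAC, against 0.29, 0.51, 0.29 and 0.09 at baseline, with all TAC arrays above. The difference was 0.44 ± 0.23 in NOS3-TG (adjusted p = 0.235) and 0.64 ± 0.23 in WT (adjusted p = 0.0544). Under 8 alternatives the WT difference was called, among them the fit with the atrial marker level (0.70, adjusted p = 0.0165). Its dimmer probe, A_51_P228472, was above background on 13 arrays and gave 0.08 ± 0.28 in NOS3-TG and 0.32 ± 0.28 in WT.

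Igfbp4 and Igfbp5, which sit on chromosomes 11 and 1 and are cut by the metalloproteinase PAPP-A, were not called. Igfbp4 averaged 0.10 ± 0.28 in NOS3-TG TAC and 0.03 ± 0.26 in NOS3-TG baseline, and 0.01 ± 0.14 in WT TAC and -0.04 ± 0.21 in WT baseline (SD, n = 4 each). Its 95% intervals for TAC minus baseline were -0.28 to 0.42 in NOS3-TG and -0.30 to 0.40 in WT. The other Igfbp4 probe pointed the opposite way in both genotypes (-0.12 and -0.15), also without a call. Igfbp5 averaged 3.03 ± 0.32 in NOS3-TG TAC and 3.03 ± 0.34 in NOS3-TG baseline, and 2.86 ± 0.15 in WT TAC and 2.99 ± 0.21 in WT baseline. Its intervals were -0.39 to 0.40 in NOS3-TG and -0.53 to 0.26 in WT. The other Igfbp5 probe, A_51_P204153, was above background on 11 arrays and gave 0.16 ± 0.19 in NOS3-TG and -0.16 ± 0.19 in WT, without a call.

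The overexpression of NOS3 in cardiomyocytes was not accompanied by a called difference in any of the 9 genes. Between NOS3-TG and WT, 0 of 9 genes were called after TAC, against 0.281% of all genes tested, and 0 of 9 at baseline, against 0.415%. By the probe that stands for each gene, no member had an unadjusted p under 0.05 in either. The genotype-by-TAC interaction, which asks whether the TAC response differs between genotypes, called 0 of 9 members and 0% of all genes, while 1165 of 15669 genes had an unadjusted p under 0.05. After TAC the widest difference was that of Igfbp3, at -0.36 (95% interval -0.86 to 0.14). At baseline it was that of Igf1, at 0.34 (-0.07 to 0.74). Igf1 was higher in NOS3-TG on both baseline slides, by 0.30 on slide 1 and 0.38 on slide 4. Its other probe gave 0.37 ± 0.17, with an unadjusted p under 0.05 in limma's test but no call (adjusted p over all probes = 0.415). Without WT baseline replicate 1, the difference in Igf1 was 0.48 and still not called.

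For the genes called in both genotypes the intervals of NOS3-TG minus WT give the size that could have been missed. After TAC they ran from -0.21 to 0.58 for Igf2, -0.35 to 0.19 for Igf1r, -0.49 to 0.41 for Igfbp6 and -0.38 to 0.08 for Igfbp7. The interaction estimates of these genes were 0.20 ± 0.26, -0.18 ± 0.18, -0.11 ± 0.29 and -0.13 ± 0.15. In each of the 4 the TAC difference was nearer to 0 in NOS3-TG than in WT, but no interaction passed. By the second Igf2 probe the interaction was 0.03 ± 0.23. Over all genes, too, fewer were called in NOS3-TG (1856) than in WT (4462).

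Between the sexes none of the 9 genes was called, against 1.33% of all genes tested. By the probes that stand for the genes, Igf1r alone had an unadjusted p under 0.05 and was higher in females by 0.36 ± 0.09 (adjusted p = 0.0683). The second Igf2 probe also had one, at 0.30 ± 0.11 (adjusted p over all probes = 0.231). Igf1r was higher in females on each of the 4 slides, by 0.27, 0.25, 0.56 and 0.35. With only probes above background on all 16 arrays in the test, Igf1r was called (adjusted p = 0.0457). The median difference of the atrial markers between females and males was -3.57, though none of the 3 was called. With their level as a covariate the Igf1r difference was 0.42 (adjusted p = 0.10).

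Other genes of the IGF system were taken from 4 lists, whose counts stand beside calls for 11.8% of all genes in NOS3-TG and 28.5% in WT. Of 10 further genes of the IGF axis 6 were measured above background. Igf2bp2, an RNA-binding protein of Igf2 messenger RNA, rose by 0.77 ± 0.23 in NOS3-TG (adjusted p = 0.0433) and by 1.29 ± 0.23 in WT (adjusted p = 0.00159). H19, the imprinted noncoding RNA beside Igf2, had -0.61 ± 0.27 in NOS3-TG (adjusted p = 0.162) and fell by 1.00 on the log2 scale in WT (adjusted p = 0.0164). None of the other 4 was called. Among them Igfbp2, another binding protein, had 1.36 ± 0.45 in NOS3-TG (adjusted p = 0.0703) and -0.26 ± 0.45 in WT, and the insulin receptor Insr had 0.14 ± 0.17 and -0.12 ± 0.17.

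Of 9 proteases of binding proteins and their regulators, 1 rose and 1 fell in NOS3-TG, and 2 rose and 1 fell in WT. Mmp14, a membrane metalloproteinase, rose by 0.85 ± 0.26 in NOS3-TG and 0.99 ± 0.26 in WT, with overlapping groups in both. Mmp2, a gelatinase, rose in WT by 0.63 ± 0.22. Htra1, a secreted serine protease known to cleave IGF binding proteins, fell by 0.35 on the log2 scale in NOS3-TG and by 0.68 in WT, with all TAC arrays below all baseline arrays. Mmp14 was also the single gene of these lists called between the sexes, lower in females (-0.85 ± 0.18, adjusted p = 0.0409).

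In the growth hormone axis, 2 of 6 genes fell in NOS3-TG, and 3 fell and 1 rose in WT. The growth hormone receptor Ghr fell by 0.40 in NOS3-TG (log2 scale, adjusted p = 0.0351) and by 0.71 in WT (adjusted p = 0.000918), and its 4 other probes pointed the same way. Stat5a, a transcription factor that this receptor activates, fell by 0.72 in NOS3-TG and by 0.98 in WT, without overlap. Socs2, an inhibitor of growth hormone signalling, rose in WT (0.68 ± 0.17). Stat5b fell in WT (-0.44 ± 0.12), while its other probe was at 0.12.

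Downstream of the receptors, 2 of 33 genes rose and 3 fell in NOS3-TG, and 2 rose and 6 fell in WT, which is near the shares over all genes. Irs1, the docking protein that carries the signal from the IGF1 and insulin receptors, rose by 0.92 ± 0.20 in NOS3-TG and by 0.77 ± 0.20 in WT. Grb10, an adaptor that dampens these receptors, rose by 0.40 ± 0.11 and 0.67 ± 0.11, although 1 of its 2 other probes pointed the opposite way. Its relative Grb14 fell by 0.50 on the log2 scale in NOS3-TG and by 1.01 in WT, with no overlap in either. Pik3r1, the regulatory subunit of phosphoinositide 3-kinase, fell by 0.88 in NOS3-TG and by 0.62 in WT, and its 3 other probes gave the same sign. The median of the list was -0.02 in NOS3-TG and -0.01 in WT, close to that of all genes. No gene of the 4 lists was called between the genotypes at either stage.

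**Figure D3:**
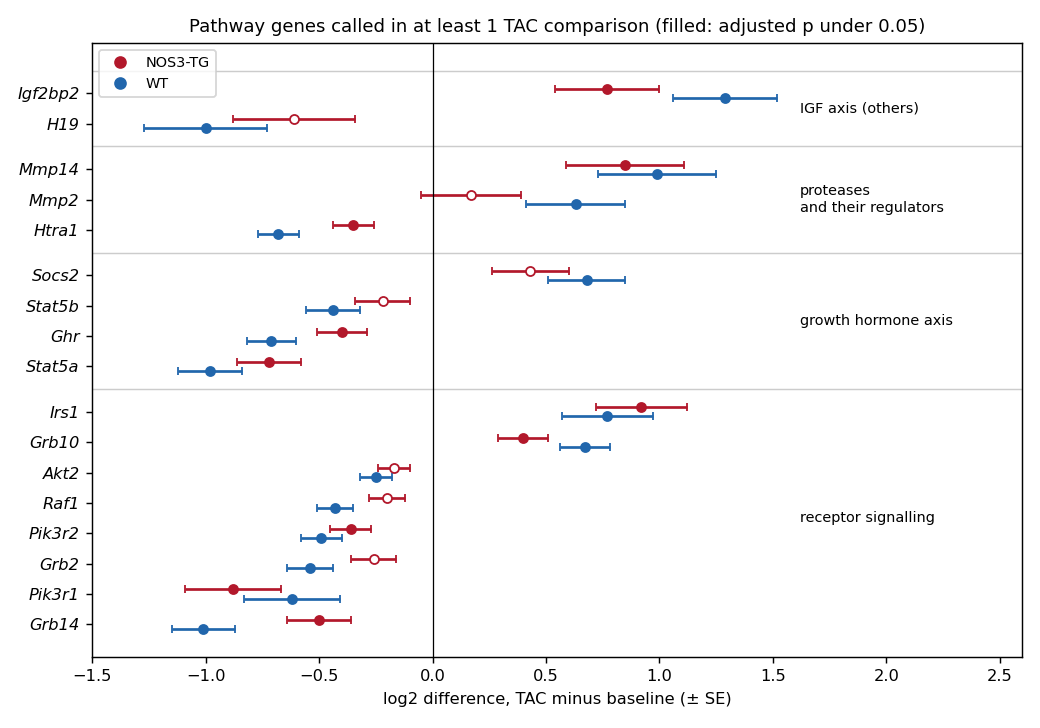
Log2 difference (± SE from limma) between TAC and baseline in NOS3-TG (red) and WT (blue) for the genes of the 4 pathway lists called in at least 1 of both comparisons. Filled points have an adjusted p under 0.05. Igf2bp2, Mmp14, Irs1 and Grb10 lie to the right of 0 in both genotypes, and Htra1, Ghr, Stat5a, Grb14, Pik3r1 and Pik3r2 to the left.

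Some marker genes of other cell types were called after TAC, and their counts also stand beside 11.8% of all genes in NOS3-TG and 28.5% in WT. In bulk tissue a change in the number of cells of a type and a change of RNA per cell cannot be told apart. Of 9 macrophage markers, which all passed the background filter, 1 rose in NOS3-TG and 5 in WT. The median log2 difference of the list was -0.05 in NOS3-TG and 0.41 in WT. Their summed level, in multiples of the 75th percentile, was 106 to 121 in NOS3-TG TAC, 92.4 to 112 in NOS3-TG baseline, 88.3 to 113 in WT TAC and 65.9 to 81.2 in WT baseline. Lyz2 was the brightest of the list (mean of 6.36 in NOS3-TG TAC), so this sum weighs it most. At baseline Adgre1 and Csf1r of this list were higher in NOS3-TG than in WT (0.63 and 0.59). Igf1 had its lowest mean in WT baseline (-0.26 ± 0.34, SD) and its means in the other 3 groups between 0.08 and 0.31. Igf1r (-0.84), Igfbp4 (-0.04) and Igfbp6 (1.29) also had their lowest means there. The Igf1 difference between genotypes at baseline was not called (adjusted p = 0.486 in limma's test).

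Of 8 fibroblast markers, 1 rose in NOS3-TG (Postn, 1.67) and 3 in WT (Postn, 2.46, Col1a1, 1.32, and Col1a2, 0.81). Not called in WT were Tcf21 (0.23), Lum (0.03), Ddr2 (-0.10), Pdgfra (-0.19) and Dcn (-0.24). The median of the list was 0.11 in NOS3-TG and 0.13 in WT. The summed level of the 8 was 171 to 252 in NOS3-TG TAC, 152 to 218 in NOS3-TG baseline, 181 to 273 in WT TAC and 148 to 234 in WT baseline. Dcn was the brightest of the list (mean of 6.85 in NOS3-TG baseline), so this sum weighs it most. Of 7 endothelial markers 1 rose in NOS3-TG and 4 in WT, and none was called lower. The lowest difference was that of Vwf, at -0.38 in NOS3-TG and -0.54 in WT, not called. Vwf was also the brightest of the list (mean of 4.25 in NOS3-TG baseline), so a sum weighs it most. The summed level of the 7 was 43.8 to 56.4 in NOS3-TG TAC, 42.7 to 57 in NOS3-TG baseline, 51.6 to 56 in WT TAC and 48.6 to 59.6 in WT baseline. The smooth muscle and pericyte list of 7 genes had 1 higher and 1 lower call in NOS3-TG and 1 higher and 2 lower calls in WT. Acta2, smooth muscle actin, rose by 1.30 in NOS3-TG and 0.87 in WT, whereas Myh11, smooth muscle myosin, fell by 1.12 in NOS3-TG and by 1.07 in WT on the log2 scale. The other called gene was Abcc9 in WT (-0.98). The summed level was 137 to 173 in NOS3-TG TAC, 99.3 to 113 in NOS3-TG baseline, 118 to 165 in WT TAC and 111 to 151 in WT baseline. It did not overlap between conditions in NOS3-TG, but a sum weighs bright probes most. Acta2 was the brightest of the list, with a mean of 6.7 in NOS3-TG TAC and 5.4 in NOS3-TG baseline. The median log2 difference of the list was -0.57 in NOS3-TG and -0.94 in WT. Of 7 cardiomyocyte markers none was called in NOS3-TG and Ryr2 fell in WT (-0.66). All fibroblast, endothelial, smooth muscle and cardiomyocyte markers listed passed the background filter. The part of these cell types in the changes of Igf1, Igfbp6 and Igfbp7 was not tested.

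The genes whose level followed each member most closely over the 16 arrays were ranked by Pearson's r, which includes the TAC difference that they share. For Igf2 these were Aspa (0.96), Pla2g5 (0.947) and Phkg1 (0.94). Igfbp7 was followed by Carhsp1 (0.984), Meox1 (0.977) and Fstl1 (0.977), and Igfbp6 by Mfap4 (0.946), Tnfrsf12a (0.942) and Camkk1 (0.939). For Igf1r the closest was D930020L01 (0.929), the probe that RefSeq gives to the same gene, then Hsp90aa1 (0.902) and Trim47 (0.90). Igf1 had Mmp23 (0.898), TC1481003 (0.897) and Ptprj (0.893), and Igfbp3 had Btg3 (0.921), C1qtnf5 (0.91) and Cyth3 (0.88). The closest gene was Gxylt1 for Igf2r (0.868), Amer1 for Igfbp5 (0.813) and Fads1 for Igfbp4 (0.806).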

How the data were processed

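Total RNA of 16 mouse ventricles was hybridised to one-colour Agilent arrays (Cy3). Spot intensity is the processed signal that the authors deposited, background-subtracted by Agilent Feature Extraction (version 9.5.1.1 in the submitters' processing notes) per the file headers, and not normalized between arrays. The authors also deposited log2 values of fewer probes, with normalization not given in the sources used here, and these served as an alternative. Flags for signal well above background came with the deposited files.

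Control and outlier spots were left out and spots of a probe averaged. Levels are log2 signal relative to the array's 75th percentile. Probes well above background on at least 4 arrays were kept, and a gene's brightest probe by mean represents it. Limma 3.58.1 in R 4.3.3 fitted 4 group means and sex over all 16 arrays. Tests are two-sided, and adjusted p-values are Benjamini-Hochberg over all genes of a comparison. Replicate numbers follow accession order and pair nothing. The fit was tested on simulated data with changes put into WT TAC. It recovered 41% of 100 log2 changes of 0.5 and 80% of 100 log2 changes of 1, among 15510 genes. The measured WT comparison called 4462 genes. These rates need not hold for it, because an adjusted p depends on how many genes change. The number of arrays limits precision. The probes' own coordinates carry no stated build, so gene positions and start regions are RefSeq's on GRCm38.p6, where all 9 genes matched by symbol. Plots used Python 3.11.15 and its matplotlib 3.10.9.

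Named are the 9 members with their passing probes, up to 4 called genes of each pathway list by size, and Nos3, Nppa and Nppb as checks. Also named are the 3 genes with the highest r to each member, but only the closest for Igf2r, Igfbp4 and Igfbp5. Insr, Igfbp2, Mmp14 between the sexes and the single markers were named after their values were seen. Members and lists were chosen with earlier results of these data known. The alternatives are quantile and normexp (offset 50) normalization, the authors' values, no filter or a filter on all arrays, other ways to treat several probes, array weights, a variance trend, a fit with no sex term, a fit of the compared groups alone, terms for slide and for scan day, the atrial marker level, and arrays left out.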

Additional observations from a re-analysis of the deposited data

Results flagged for a closer look

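Of 36 groups of 4 arrays (9 genes in 4 groups), 4 held an array set apart from the other 3 by a gap past Dixon's critical value, where chance gives about 5% of groups. Igf1 in WT baseline replicate 1 was at 0.25, above the other arrays of its group (gap 0.877 of the range). Igfbp7 in WT TAC replicate 2 was at 6.64, below its group (0.873). Igf2r in NOS3-TG TAC replicate 1 was at 3.85, below its group (0.952), and without that array the Igf2r difference between NOS3-TG TAC and WT TAC was -0.05. Igfbp4 in NOS3-TG baseline replicate 3 was at -0.35, below its group.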

How the results depend on the processing

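All 24 member differences that exceeded their standard error kept their sign in every refit. Within single slides, uncalled sex differences of Igf1 (0.10 on slide 4) and Igfbp7 (0.04 on slide 3 and 0.03 on slide 4) had the other sign. In WT, 4 to 6 of the 9 genes were called under all 31 alternatives, and in both genotype comparisons and the interaction 0. In NOS3-TG the count of 4 fell to 2 without a filter, to 1 with the compared groups alone, to 1 with scan day as a covariate and to 1 without the 3 arrays with extreme shares above background. With 1 array left out it was 1 to 4. Between the sexes, the filter on all 16 arrays gave 1 (Igf1r) in place of 0. Over all genes, calls ranged from 401 (without the 3 arrays) to 2823 (array weights) beside 1856 in NOS3-TG and from 2699 (scan day) to 6303 (every probe on its own) beside 4462 in WT. They ranged from 2 (without NOS3-TG TAC replicate 2) to 91 (variance trend) beside 44 for NOS3-TG TAC against WT TAC, from 24 (normexp) to 310 (array weights) beside 65 at baseline, and from 24 (without the 3 arrays) to 671 (array weights) beside 208 between the sexes. The cause was not tested.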
